A study of Mus musculus with 8 samples.

Results

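The genes described here encode the proteins that move calcium in and out of the cytosol with each heartbeat. They are 10 genes fixed by name: Cacna1c, Cacnb2, Ryr2, Casq2, Trdn, Jph2, Atp2a2, Pln, Slc8a1 and Camk2d. All 10 were found among the 32285 genes listed in the count matrices. They were followed through cardiomyocyte-like nuclei, their sub-states and the other cell types of the adult mouse heart.

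In a cardiac myocyte, depolarization opens the L-type calcium channel of the surface membrane, and the calcium that enters opens the ryanodine receptor of the sarcoplasmic reticulum, which releases much more. Calcium is then pumped back into the reticulum by the ATPase encoded by Atp2a2, whose brake is phospholamban, and is carried out of the cell by the sodium-calcium exchanger. Smooth muscle and pericytes, the contractile cells of vessel walls, also use L-type channels and internal stores. In these cells, inositol trisphosphate receptors provide a further route of release.

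Nuclear RNA was counted as unique molecular identifiers (UMIs) in single nuclei of adult hearts by the 10x Genomics method. The series has 8 libraries in 4 labelled groups of 2: wild-type mice without the transgene (nTg) and wild-type mice that constitutively express CCNA2 (Tg), each female or male. CCNA2 is cyclin A2, a regulator of the cell division cycle. The labels give no age, strain name, promoter or number of animals per library. Nothing in them says that 2 libraries of a group came from separate animals, so that every spread and p-value below measures these libraries only.

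Of the 8 matrices, 5 had as many columns as their own barcode list and were used. They carry the label nTg female 1 and, for Tg, both female and both male labels. Wherever 5 values are listed, the nTg library comes first, then the female Tg libraries 1 and 2, then the male Tg libraries 1 and 2. The other 3 matrices, all labelled nTg, were not analysed here. They hold the same values as 3 matrices that were used, those of the second female and both male libraries with the Tg label, so that each of these 3 data sets stands under an nTg and a Tg label. The used libraries held 25045167 to 38593706 UMIs, and 5773 to 8817 nuclei were kept in each. Cardiomyocyte-like nuclei numbered 1132, 1985, 950, 1310 and 1181, with a median depth of 5752 to 8021 UMIs. Ccna2 went against 2 labels. It stood at 444 CPM (UMIs per 1000000 UMIs summed over the cardiomyocyte nuclei) in the library labelled nTg female 1 and at 0.524 CPM, from 7 UMIs, in the library labelled Tg female 1. The remaining 3 libraries had 827, 231 and 143 CPM. All groups below are therefore groups of labels. Of 37623 filtered barcodes, 144 occurred in more than 1 library.

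The sequence upstream of 3 members whose RNA was shared between cardiomyocytes and another cell type is shown. These are Casq2 and Jph2, shared with vessel-wall cells, and Slc8a1, shared with smooth muscle and macrophages. Cacna1c and Cacnb2 were shared with vessel-wall cells as well, and their windows are not printed. The RefSeq promoter table for GRCm38.p6 matched 8 of the 10 genes, with 12 start sites. Atp2a2 and Trdn had no entry. Each line gives the 250 bases before the start site, 5′ to 3′ on the gene's strand. The Casq2 window is chr3:102086165-102086414 (plus strand), the Jph2 window chr2:163397994-163398243 (minus strand) and the Slc8a1 window chr17:81738388-81738637 (minus strand). None of the 3 windows overlaps an exon of the GENCODE vM21 annotation. Capitals mark a match to the MEF2 motif (Casq2), to CAGCTG (Jph2) and to AGATAA (Slc8a1).
Casq2: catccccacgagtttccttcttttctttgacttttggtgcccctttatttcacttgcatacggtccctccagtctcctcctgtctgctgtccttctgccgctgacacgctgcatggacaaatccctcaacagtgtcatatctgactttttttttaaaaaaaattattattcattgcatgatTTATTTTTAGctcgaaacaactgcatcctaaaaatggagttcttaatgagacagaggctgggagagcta
Jph2: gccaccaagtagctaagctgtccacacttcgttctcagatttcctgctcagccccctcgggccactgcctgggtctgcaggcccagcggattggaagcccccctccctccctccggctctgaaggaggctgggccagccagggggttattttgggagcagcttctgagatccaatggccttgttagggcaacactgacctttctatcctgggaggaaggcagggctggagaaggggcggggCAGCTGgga
Slc8a1: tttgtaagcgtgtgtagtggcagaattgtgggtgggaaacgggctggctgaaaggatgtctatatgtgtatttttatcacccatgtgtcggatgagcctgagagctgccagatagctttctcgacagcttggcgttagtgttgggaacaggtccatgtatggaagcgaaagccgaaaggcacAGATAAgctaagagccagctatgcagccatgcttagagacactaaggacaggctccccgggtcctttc

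The motifs were searched on both strands. MEF2 is the site of a family of muscle transcription factors, CAGCTG is a form of the E-box and AGATAA a form of the GATA site. The MEF2 match in Casq2 lies 69 to 60 bases before the start site, and 2.92% of the 32851 windows in the table hold one. The CAGCTG of Jph2 lies 9 to 4 bases before its start site, and 13% of windows hold it. The AGATAA of Slc8a1 lies 68 to 63 bases before its start site, and 9.99% of windows hold it. Of the 12 member windows, 1 held the MEF2 motif, 4 held CAGCTG (Cacnb2 and Jph2) and 2 held AGATAA (Pln and Slc8a1). The Jph2 windows, of which 1 is printed, overlap and hold the same CAGCTG, so these windows are not separate sites. TATAAA was found in 1 (Pln) and in 12.4% of all windows, and the CArG box, a site of serum response factor, in 0 and in 1.47%. CAGCTG reads the same on both strands. The windows of Cacna1c, Ryr2 and Camk2d held no match to any motif searched. Each printed window holds a match, so the printed ones do not stand for all members that were shared. These letters are a description of the windows and not evidence of binding.

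The 10 genes together took 3.58%, 4.04%, 3.81%, 3.34% and 3.41% of all cardiomyocyte UMIs. Where introns are counted, a long gene can yield more UMIs than a short one, and whether they were is not given in the sources used here. Levels are therefore compared between genes only per kb, of gene span or of exon.

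The trigger channel was represented by 2 members. Cacna1c, the pore of the L-type channel (ENSMUSG00000051331, GRCm38 chromosome 6, 118587240 to 119196418, minus strand), had 6768, 7854, 7118, 6332 and 6328 CPM in the 5 libraries. Its mean was 6880 ± 637 CPM (SD, n = 5), with both libraries labelled male lowest and closest together. Cacnb2, the auxiliary subunit that brings the pore to the membrane (ENSMUSG00000057914, chromosome 2, 14603088 to 14987908, plus strand), had 1589.9, 1875, 1532, 1231 and 1186 CPM. Its mean was 1483 ± 283 CPM, again with the male libraries below the 3 female ones.

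The release unit was represented by 4 members. Ryr2, the release channel (ENSMUSG00000021313, chromosome 13, 11553102 to 12106945, minus strand), had 9626, 9753, 9082, 8748 and 10919 CPM. Its mean was 9626 ± 830 CPM, and the 2 male libraries held its lowest and its highest value. Casq2, the calcium buffer inside the store (ENSMUSG00000027861, chromosome 3, 102086415 to 102146514, plus strand), had 269, 334, 288, 292 and 272 CPM. Trdn, triadin, which tethers that buffer to the release channel (ENSMUSG00000019787, chromosome 10, 33080554 to 33476709, plus strand), had 5799.7, 6484, 6694, 5633 and 4840.4 CPM. Jph2, junctophilin, which holds the store against the surface membrane (ENSMUSG00000017817, chromosome 2, 163336242 to 163397993, minus strand), had 298, 305, 296, 353 and 262 CPM. For Casq2 and Jph2 the libraries of both sexes overlapped, while both female Tg libraries lay above both male ones for Trdn.

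Uptake, extrusion and regulation were represented by the remaining 4. Atp2a2, the store's calcium pump (ENSMUSG00000029467, chromosome 5, 122453513 to 122502225, minus strand), had 3534, 3776, 3326, 3282 and 3236 CPM. This was the member with the smallest spread, a coefficient of variation of 6.53%. Pln, phospholamban (ENSMUSG00000038583, chromosome 10, 53337667 to 53345987, plus strand), had 2401, 2422, 1996, 2299 and 1927 CPM. Slc8a1, the sodium-calcium exchanger (ENSMUSG00000054640, chromosome 17, 81373105 to 81738377, minus strand), had 4724, 6541, 6836, 4464 and 4309.6 CPM. It had the largest spread of the 10, 22.6%, and both female Tg libraries stood well above the other 3. Camk2d, the calcium-calmodulin kinase that phosphorylates the release channel and phospholamban (ENSMUSG00000053819, chromosome 3, 126596302 to 126846326, plus strand), had 789.5, 1101, 888, 804 and 852 CPM.

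**Figure D1:**
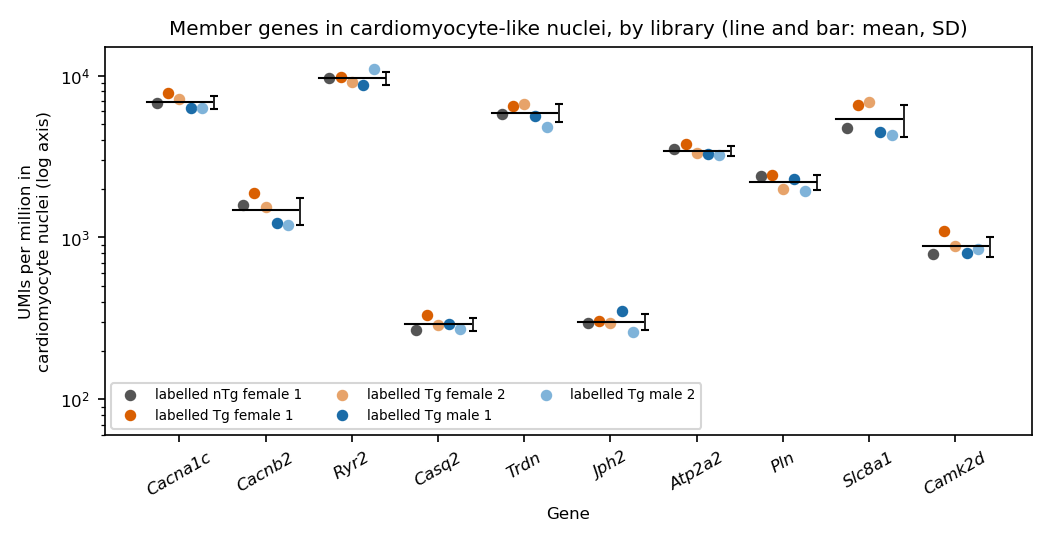
Level of each gene in cardiomyocyte-like nuclei (vertical axis: CPM, log axis) for the 5 libraries (points, coloured by label), with the mean as a line and the SD as a bar. Slc8a1 and Cacnb2 show the widest spread, with both female Tg libraries above both male ones, and Atp2a2 the narrowest.

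Per kb of gene span, Pln led with 265 ± 27.9 CPM per kb (SD, n = 5), followed by Atp2a2 with 70.4 ± 4.60 CPM per kb. Both lay above the next member in every library. Ryr2 (17.4 ± 1.5), Trdn (14.9 ± 1.86), Slc8a1 (14.7 ± 3.32) and Cacna1c (11.3 ± 1.05) formed a middle group in CPM per kb, in which each neighbour's range overlapped the next. Jph2 (4.90 ± 0.533), Casq2 (4.85 ± 0.434), Cacnb2 (3.85 ± 0.734) and Camk2d (3.55 ± 0.503) were lowest in CPM per kb and likewise overlapped. Compared within libraries, Slc8a1 was above Cacna1c and Casq2 above Cacnb2 in each of the 5. The other neighbours inside these groups did not keep their order in every library. Per kb of exon instead, Pln again ranked 1, but Trdn ranked 2 and Atp2a2 3, so the order of the uptake genes and triadin depends on which length is used.

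Ratios of 2 genes within a library compare libraries, not the genes. Atp2a2 over Pln, in CPM, was 1.47, 1.56, 1.67, 1.43 and 1.68 in the 5 libraries, a 1.18-fold range. The ratio of Ryr2 to its junctional partner Jph2 ran from 24.8 (Tg male 1) to 41.7 (Tg male 2), a 1.69-fold range, so the 2 male libraries held the extremes.

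To compare shares of nuclei with at least 1 UMI at equal depth, each nucleus was thinned to 1000 UMIs, and the 5, 32, 14, 9 and 2 cardiomyocyte nuclei below that depth were left out. Ryr2 was then found in 97.3% to 99.3% of cardiomyocyte nuclei, Cacna1c in 97.7% to 98.8% and Trdn in 97.3% to 98.2%. Cacnb2 was found in 63.8% to 78.1% and Camk2d in 51.9% to 62.5%. Casq2 was found in 21.8% to 28.1% and Jph2 in 21.6% to 27.6%. Without thinning, Casq2 was found in 73.1% to 81.0% and Jph2 in 74.6% to 84.0%, and both had a median of 1 to 2 UMIs per nucleus at full depth.

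Outside cardiomyocytes the members were not shared alike. Cacna1c, Cacnb2, Casq2 and Jph2 were high in both smooth muscle and pericytes. Slc8a1 was high in smooth muscle and macrophages. Ryr2 was present in smooth muscle at a small part of its cardiomyocyte level, and Trdn followed free RNA in all 7 other types with at least 50 nuclei in every library. Atp2a2, Pln and Camk2d were spread over all of these types.

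Free RNA from broken cells enters every droplet, so that nuclei can carry UMIs of genes they do not express. The rule set for this compared the ratio of a type to cardiomyocytes with that of 20 sarcomere and other cardiomyocyte transcripts. By it, 0 of 10 members lay above the highest of these in each of the 7 types, whereas among all 7819 genes with at least 10 CPM in cardiomyocytes of every library 58.6% did in endocardium, 50.2% in endothelium, 68.6% in fibroblasts, 57.4% in lymphatic endothelium, 57.3% in macrophages, 55.5% in pericytes and 14.5% in smooth muscle. The bar was set mostly by Mb, the myoglobin mRNA, whose mean was 59.4% to 91.3% of its cardiomyocyte level in 6 of the types, and in smooth muscle by Ctnna3 at 125%. Some long transcripts passed over at far lower levels: Ttn stood at 0.691% to 1.33% and Rbm20 at 0.207% to 0.524% of the cardiomyocyte level. Others did not: Myh6, also on the long list, stood at 5.10% to 7.67%. In smooth muscle the long Ldb3 and Corin were at 39.0% and 29.5%, and Ctnna3 is itself on the long list. With so wide a range, a ratio to cardiomyocytes could not separate the members.

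A second measure was therefore added after these values had been seen. Free RNA from 1 source keeps its transcripts in 1 ratio to each other in all cells that do not make them. CPM values were scaled by the level of 8 short cardiomyocyte transcripts in each type and library, and each gene was divided by its lowest scaled level in fibroblasts, endothelium or macrophages. This excess is near 1 for free RNA, but also for a gene made alike in all 3 of these base types. In the base type with the lowest level it is at most 1 by construction, so the gene cannot be counted as above there. A gene was counted as above when its excess was higher than that of all 8 transcripts in every library. The highest of the 8 ran from 1.06 to 1.43 in 6 types and from 1.45 to 3.21 in smooth muscle.

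In smooth muscle, 6 of 10 members were above the free-RNA pattern (Cacna1c, Cacnb2, Ryr2, Casq2, Jph2 and Slc8a1), against 9.25% of all genes. In pericytes, 6 of 10 were above (Cacna1c, Cacnb2, Casq2, Jph2, Slc8a1 and Atp2a2), against 21% of all genes. In fibroblasts the count was 5 of 10 against 55.2%, and in lymphatic endothelium and endocardium 3 of 10 against 24.2% and 30%, so these shares were near or below the background. In macrophages 1 of 10 was above (Slc8a1), against 32.9%, or 7 of 10 when called doublets were kept, and in endothelium 1 of 10 (Pln), against 12.9%. The all-gene shares were not matched for level. The members ranked 3 (Ryr2) to 492 (Casq2) of 32285 genes by cardiomyocyte CPM, while these shares include genes near 10 CPM. Smooth muscle held only 187516 to 575036 UMIs per library, which leaves few UMIs for low genes.

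**Figure D2:**
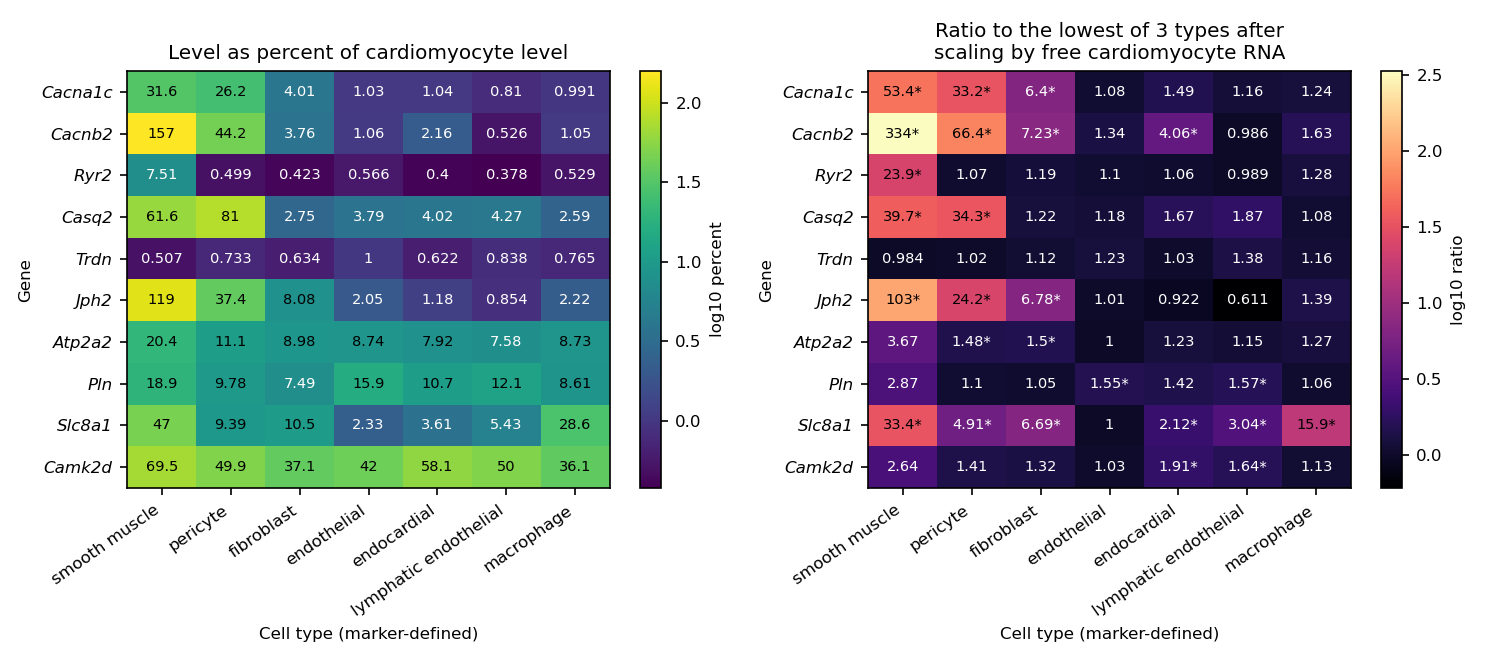
Left, level of each gene in 7 cell types as a percent of its cardiomyocyte level (mean of 5 libraries, log colour scale). Right, the excess over the free-RNA pattern (mean of 5 libraries, log colour scale; a star marks genes above all 8 reference transcripts in every library). Cacna1c, Cacnb2, Casq2 and Jph2 stand out in smooth muscle and pericytes, Slc8a1 in smooth muscle and macrophages, and Trdn stays near 1 throughout.

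The trigger channel subunits were high in vessel-wall cells. Cacna1c had 2203, 2153, 2026, 2357 and 2037 CPM in smooth muscle (2155 ± 136, SD, n = 5), or 31.6% ± 3.88 of its cardiomyocyte level. In pericytes it had 1998, 1720.3, 1507, 1759 and 1924 CPM, or 26.2% ± 4.33 of the cardiomyocyte level, whereas in endothelium it had 57.6 to 94.5 CPM. No library of either vessel-wall type overlapped the endothelial range. Cacnb2 had 2590.4, 2217, 1771, 2336 and 2380.4 CPM in smooth muscle, which exceeded its cardiomyocyte level in the same library in each case. Its level there was 157% ± 39.5 of that in cardiomyocytes, and its excess over the free-RNA pattern was 334 ± 170, the largest of any member in any type. In pericytes Cacnb2 had 579 to 728 CPM, 44.2% ± 8.08 of the cardiomyocyte level.

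Casq2 and Jph2 of the release unit were shared with vessel-wall cells too. Casq2 had 283, 244, 222, 209 and 214 CPM in pericytes, 81.0% ± 13.8 of its cardiomyocyte level (SD, n = 5), and 125 to 261 CPM in smooth muscle. In fibroblasts, endothelium and macrophages it had 3.57 to 15.8 CPM, so pericytes and these types did not overlap. At 1000 UMIs per nucleus, a Casq2 UMI was found in 14.5% to 25.1% of pericytes and in 0.193% to 1.10% of macrophages, at median depths of 1666 to 2602 and 1870 to 2745 UMIs. Here 4 to 23 pericytes and 7 to 39 macrophages per library were too shallow, and without thinning the shares were 27.7% to 44.5% and 1.11% to 2.43%. Jph2 had 384, 443, 219, 389 and 363 CPM in smooth muscle, 119% ± 28.7 of its cardiomyocyte level, and 89.2 to 141 CPM in pericytes. The library labelled Tg female 2 was lowest for Jph2 in smooth muscle and was the only one there below its own cardiomyocyte level. The upstream windows of both are among the 3 printed above. The factors bound there were not measured.

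Ryr2 and Trdn separated from these. In smooth muscle Ryr2 had 1082, 777, 315, 588 and 889.7 CPM, 7.51% ± 2.81 of its cardiomyocyte level, with an excess over free RNA of 23.9 ± 10.4. In pericytes it had 22.6 to 78.8 CPM, and its excess was 1.07 ± 0.297, close to 1. Trdn had 33.8, 33.0, 26.7, 27.1 and 27.3 CPM in smooth muscle, 0.507% ± 0.0734 of its cardiomyocyte level, and its excess was 0.984 ± 0.270. Trdn was thus at the free-RNA level in the same smooth muscle nuclei in which the excess of Ryr2, Casq2 and Jph2 was 7.58 or more in each library. In none of the 7 types was Trdn counted as above.

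The uptake genes had lower excesses in vessel-wall cells than Cacna1c, Cacnb2, Casq2 and Jph2. This cannot be read as free RNA alone, because a gene made in all 3 base types would also have an excess near 1. In endothelium Atp2a2 had 246 to 373 CPM, and its excess was 1 in each library because that type was its lowest. Atp2a2 had 312.6 to 437.5 CPM in pericytes with an excess of 1.48 ± 0.0730, and 587 to 802 CPM in smooth muscle with an excess of 3.67 ± 0.654. Pln had 372 to 529 CPM in smooth muscle with an excess of 2.87 ± 0.402. Neither was counted as above in smooth muscle, because the highest reference transcript reached 3.21 in the library labelled Tg female 2. Without that library both were, which makes the count 8 of 10. With the 10% of nuclei richest in cardiomyocyte transcripts left out, both were as well, together with Camk2d, which makes it 9 of 10. These are the 2 members with the shortest gene spans (48.7 and 8.32 kb), and both lay at 7.49% to 20.4% of their cardiomyocyte level in all 7 types.

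Slc8a1, the exchanger, was above the free-RNA pattern in 6 of the 7 types, all but endothelium. Endothelium was its lowest base type in each library, so an excess of 1 there was fixed by the measure and does not show that the gene is absent. With called doublets kept, the calls in endocardium and lymphatic endothelium were lost, and without the nuclei richest in cardiomyocyte transcripts that in endocardium was lost. Slc8a1 had 2185, 2993, 1883, 2333 and 2719.9 CPM in smooth muscle, 47.0% ± 12.9 of its cardiomyocyte level. In macrophages it had 1601, 2032, 1010.2, 1524 and 1266 CPM, 28.6% ± 8.01 of the cardiomyocyte level, with an excess over free RNA of 15.9 ± 4.95. In endothelium, by contrast, it had 72.9 to 183 CPM, and no macrophage library overlapped that range. In fibroblasts it had 418 to 767 CPM with an excess of 6.69 ± 1.55. The same macrophage nuclei had Cacna1c at an excess of 1.24 ± 0.404 and Ryr2 at 1.28 ± 0.351. Camk2d was spread over all types at 36.1% to 69.5% of its cardiomyocyte level. Its excess cannot be read as expression or its absence, since the measure assumes that at least 1 of the 3 base types lacks the gene.

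In types with under 50 nuclei in a library, counts were pooled over libraries and carry no replicate error. Mesothelial-like nuclei (105, of which 48 were in the library labelled Tg male 2) had Cacnb2 at 1031 CPM (exact Poisson interval 933 to 1136, from 406 UMIs), 69.0% of the pooled cardiomyocyte level. There Trdn was at 1.04% and Ryr2 at 0.446%. Schwann-like nuclei (181) carried Ryr2 at 12.6%, Trdn at 15.2% and Cacna1c at 15.4% of the cardiomyocyte level, and in B-lymphocyte-like nuclei (70) the same 3 were at 9.12%, 7.49% and 10.2%. These intervals cover counting error only, and the share of mixed droplets in those 2 clusters was not tested.

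Other genes of calcium handling were taken from a list of 83 in 7 groups. Of these, 48 reached 10 CPM in cardiomyocytes of every library: 5 of 16 channel subunits and channel inhibitors, 2 of 5 other release channels, 10 of 15 store and junction proteins, 2 of 11 other pumps and exchangers, 7 of 8 mitochondrial uptake genes, 16 of 18 calmodulin, kinase and phosphatase genes and 6 of 10 genes of store-operated entry. By the ratio to cardiomyocytes, 10 of 48 were above the free-RNA range in smooth muscle and 21 of 48 in pericytes, and 20 to 26 in the other 5 types, against the backgrounds of that rule given above. By the added measure, 12 of 48 were above in smooth muscle (against 9.25% of all genes), 20 in pericytes (21%), 24 in fibroblasts (55.2%), 17 in lymphatic endothelium (24.2%), 15 in endocardium (30%), 15 in macrophages (32.9%) and 7 in endothelium (12.9%). In smooth muscle these were 3 channel subunits (Cacna1d, Cacna1g, Cacna2d1), Itpr1, 3 store and junction genes (Jph1, Srl, Tmem38b), Camk2g, Akap6, Rcan2, Trpc1 and Trpm4. Itpr1, an inositol trisphosphate receptor, had 1112 ± 204 CPM in smooth muscle and 213 ± 54.9 in cardiomyocytes (SD, n = 5). It was above in all types but macrophages, its lowest base type, where the excess was 1 by construction. Its levels were 698 ± 71.2 CPM in fibroblasts, 601 ± 36.6 in endocardium, 559 ± 75.4 in pericytes, 543 ± 35.6 in lymphatic endothelium and 427 ± 42.4 in endothelium. Cacna2d1, the channel's extracellular subunit, had 862 ± 120 CPM in smooth muscle, 681 ± 96.0 in pericytes and 405 ± 61.6 in fibroblasts against 1434 ± 263 in cardiomyocytes. Tmem38b, a counter-ion channel of the store, had 149.6 ± 9.61 CPM in smooth muscle and 37.5 ± 15.2 in cardiomyocytes. Ank2, the anchor of the exchanger, had 1439 ± 228 CPM in fibroblasts, 733 ± 148 in pericytes, 267 ± 55.1 in macrophages and 231 ± 55.7 in lymphatic endothelium, the 4 types in which it was above, against 1667 ± 209 in cardiomyocytes.

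Genes with the most similar profile to each member were ranked by Pearson correlation over 8 cell types (log2 of CPM + 1, means over libraries). The 8 points share libraries and free RNA, so these are descriptions. Ryr2 was closest to Pde4dip, Nmrk2 and Srl (r = 0.995, 0.993 and 0.993), and Trdn to Tnnt2, Gm40604 and Rgs13 (r = 0.999 for each). Cacnb2 was closest to Ctnna3, Cap2 and Cdpf1 (r = 0.987, 0.981 and 0.981), and Jph2 to Speg, Cyb5r2 and Tmem196 (r = 0.989, 0.988 and 0.981). Casq2 was closest to 4632404M16Rik, Slc2a4 and Sptb (r = 0.989, 0.983 and 0.980), and Cacna1c to Hdhd2, Cyb5r2 and Miga2 (r = 0.983, 0.980 and 0.978). Atp2a2 was closest to Bves (r = 0.992), Pln to Gm31881 (r = 0.990), Slc8a1 to Dusp10 (r = 0.965) and Camk2d to Gm20647 (r = 0.955). Among the members themselves, the highest values were 0.982 for Atp2a2 with Ryr2 and 0.970 for Jph2 with Cacna1c. Over the 7 cardiomyocyte states, Ryr2 was closest to Sestd1, Mitf and Adra1a (r = 0.995, 0.992 and 0.990).

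Within cardiomyocytes, Cacna1c was lower in 1 state. Cardiomyocyte nuclei were divided into 7 states without using the members, and a gene was called apart when it was at least 1.5-fold higher or lower than in the other cardiomyocyte nuclei of every library with at least 20 nuclei. Of these, 6 are described. In 5 of them (led by Gm49808, Cntn4, Tshz2, Rp1 and Gm10800) no member was apart. The background in these states, in that order, was 0.486%, 0%, 1.79%, 0.563% and 0% of 7819 genes higher and 0.486%, 0.473%, 0%, 0.588% and 0.179% lower. The other was the state led by Fgf12, Robo1 and Cntn2, in which Cacna1c was lower. Cntn2 encodes an adhesion molecule known from the specialized conduction system of the heart. The state held 130 nuclei, 46, 32 and 31 of them in the libraries labelled Tg female 1, Tg female 2 and Tg male 1, the 3 that could be used.

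In the Fgf12 state, Cacna1c had 4128, 3004 and 3219 CPM in these 3 libraries, against 7923, 7214 and 6394 in their other cardiomyocytes. Every library was lower in the state, by 1.06 ± 0.17 on average on the log2 scale (a mean log2 ratio of -1.06, SD, n = 3). Of the 10 members, 1 was thus lower, against 7.74% of all genes, and 0 were higher, against 4.5%, so the count itself is close to the background. Ryr2 had 6731, 4646 and 4536 CPM there against 9809.6, 9185 and 8831, a mean log2 ratio of -0.83 ± 0.25. It was lower in all 3 libraries but under 1.5-fold in the library labelled Tg female 1. Trdn (-0.65 ± 0.30), Pln (-0.62 ± 0.16), Atp2a2 (-0.38 ± 0.13) and Jph2 (-0.24 ± 0.17) had log2 ratios below 0 in all 3 libraries too. Slc8a1 did not share this direction: it had 7329, 6008 and 6212 CPM against 6526, 6855 and 4429.9, a mean log2 ratio of 0.16 ± 0.34 with the libraries on both sides of 0. In nTg female 1 and Tg male 2 its log2 ratio was 0.42 and 0.56. For Cacnb2 the log2 ratios ran from -0.32 to 0.48.

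Of the 48 other calcium genes, 4 were apart and higher in the Fgf12 state and 3 lower. Among all genes 4.5% were higher and 7.74% lower, so neither count is far from the background. Cacna1d, the L-type pore that opens at more negative voltages and is known from pacemaker cells, had 541 ± 310 CPM against 12.9 ± 0.799 (SD, n = 3). Cacna1g, a T-type pore, had 299.99 ± 138 CPM against 18.7 ± 2.67. Camk2b (31.1 against 12.7 CPM) and Rcan1 (68.2 against 34.5 CPM) were the other 2. Hrc, a calcium-binding protein of the store, was lower with 102 ± 28.0 CPM against 294 ± 59.3, as were Trpm4 (28.0 against 67.6 CPM) and Strit1 (2.39 ± 4.14 against 21.4 ± 10.5 CPM). Strit1 in the state is near 0, with an SD above its mean. Of the 10 smooth muscle markers, 4 (Myh11, Acta2, Pdlim3 and Ntf3) were higher in this state in all 3 libraries, and their list summed to 1126 to 1760 CPM against 755 to 1072 in other cardiomyocytes. Of the 10 endocardial markers, 4 were higher (Npr3, Cdh11, Tmem108 and Hmcn1) and 1 was lower, and that list summed to 1213 to 1577 CPM against 600.2 to 844. The pericyte list summed to 171 to 330 CPM against 283 to 386 (1 of 9 higher, 2 lower). The macrophage list summed to 201 to 323 CPM against 106 to 168 (3 of 10 higher, 2 lower), the Schwann list to 32.8 to 50.2 against 20.3 to 24.5 (2 of 9 higher, 2 lower) and the fibroblast list to 106 to 215 against 55.9 to 168 (3 of 10 higher, 1 lower). Of these lists, only Insc was at 0 in both. Of the 12 cardiomyocyte markers 5 were lower and 2 higher, with 30293 to 42096 CPM against 37123 to 47123. The median doublet score was 0.0578 against 0.0236 to 0.0395 in the other states. The part of these differences in the result was not tested.

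**Figure D3:**
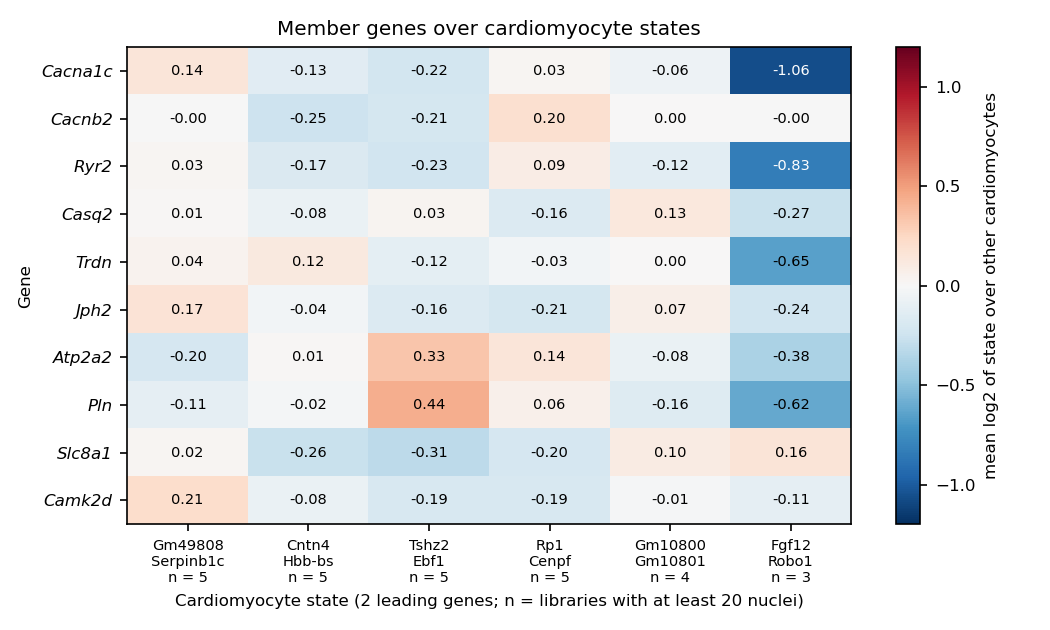
Mean log2 ratio of each gene in a cardiomyocyte state over the other cardiomyocyte nuclei of the same library (colour and number), for 6 states named by 2 leading genes, over the libraries with at least 20 nuclei. The Fgf12 state on the right shows Cacna1c at -1.06 and Ryr2 at -0.83, and the other states shown stay within 0.44 of 0.

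In the state led by Tshz2 and Ebf1, Pln had 3815, 2738, 1992, 4741 and 2156 CPM against 2334, 2407, 1996, 2181 and 1913 in other cardiomyocytes, a mean log2 ratio of 0.44 ± 0.47. Only nTg female 1 and Tg male 1 stood clearly higher, at 0.71 and 1.12, and the mean was 0.27 without Tg male 1. The log2 ratio of Atp2a2 was 0.33 ± 0.15 and above 0 in all 5 libraries, whereas Ryr2 (-0.23 ± 0.06) and Slc8a1 (-0.31 ± 0.13) were below 0. Of the 48 genes of the pathway list, 3 (Calr, Smdt1 and S100a1) were apart and higher in it and 0 lower, against 1.79% and 0% of all genes. That state held 244 nuclei, with a median mitochondrial share of 2.69%. All 10 endothelial markers were higher in it in every library (230 to 397 CPM summed, against 29.1 to 48.2 in other cardiomyocytes), as were 7 of 10 fibroblast markers (202 to 469 against 37.1 to 158 CPM). None of these markers was at 0, and their part in the result was not tested. In the state with most Ccna2 (4971 CPM pooled; 230 nuclei, 0 in the library labelled Tg female 1), led by Gm10800, the mean log2 ratios of the members lay between -0.16 and 0.13.

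No member passed the test of a sex difference in cardiomyocytes. The 2 female and 2 male libraries labelled Tg were compared with edgeR's quasi-likelihood test over 15127 genes. Among them, Tg female 1 had Ccna2 at 0.524 CPM, against 827 in Tg female 2 and 231 and 143 in the male libraries. The female side thus mixed libraries with much and with almost no Ccna2 RNA, and its part in the result was not tested. At a Benjamini-Hochberg adjusted p under 0.05, edgeR called 0 genes higher (0%) and 4 lower (0.0264%) in female libraries, and 0 of the 10 members. At an unadjusted p under 0.05 there were 1061 genes and 0 members. DESeq2 called 103 genes and again 0 members.

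Slc8a1 had the largest estimate. Its female Tg libraries had 6541 and 6836 CPM and its male ones 4464 and 4309.6, a log2 difference of 0.57 (SE 0.25, edgeR adjusted p = 0.725). The library labelled nTg female 1, which was not in the fit, had 4724 CPM and thus lay nearer to the male libraries. Cacnb2 followed with 1875 and 1532 CPM in female and 1231 and 1186 in male Tg libraries, a log2 difference of 0.46 (SE 0.22, edgeR adjusted p = 0.770). Here the library labelled nTg female 1, at 1589.9 CPM, lay on the female side. The estimates of the other 8 members ran from -0.10 (Ryr2, SE 0.29) to 0.29 (Trdn, SE 0.26). The female and male libraries did not overlap for 6 of 10 members (Cacna1c, Cacnb2, Trdn, Atp2a2, Slc8a1 and Camk2d), each higher in female, against 36.4% of all tested genes in either direction. In cardiomyocyte nuclei, 8 of 10 fibroblast markers were higher in both female than in both male Tg libraries, with sums of 69.97 and 169 CPM against 56.8 and 47.4. The smooth muscle list had 2 of 10 markers higher and 2 lower (1077 and 829 against 774 and 652 CPM), and the endocardial list 5 of 10 higher and 1 lower (850.3 and 745 against 617 and 485 CPM). The pericyte list had 3 of 9 higher (384 and 361 against 280.5 and 273 CPM), the macrophage list 2 of 10 (134 and 171 against 108 and 102 CPM) and the lymphatic list 3 of 7 (206 and 155 against 129 and 142 CPM), with 0 lower in each. No marker of these lists was at 0. Their part in the result was not tested. The median cardiomyocyte depth was 6133 and 5752 UMIs in the female and 7755.5 and 8021 in the male libraries.

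**Figure D4:**
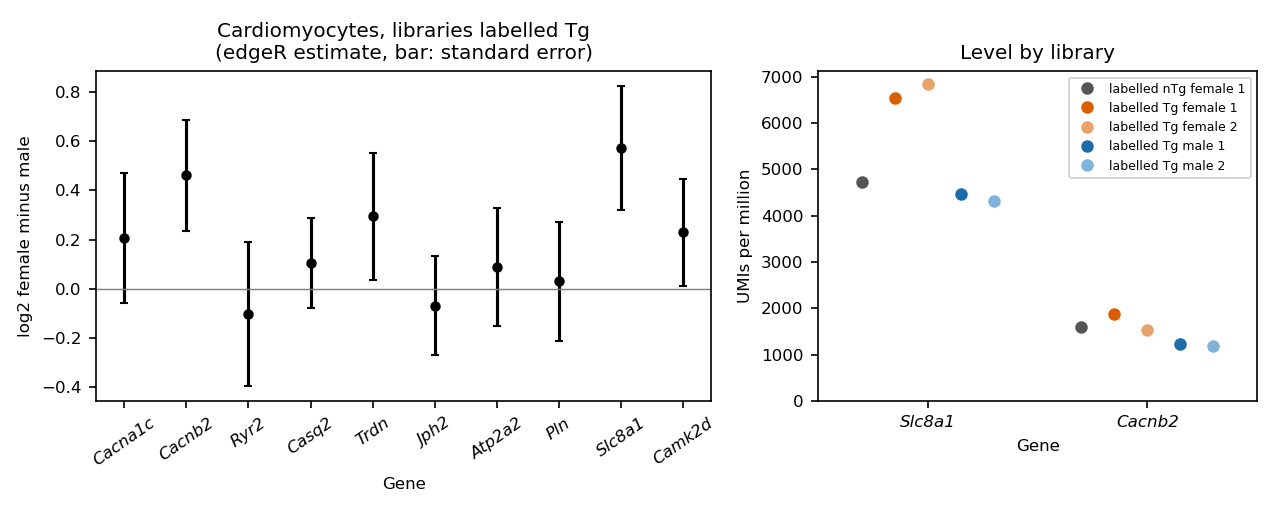
Left, edgeR log2 difference between female and male libraries labelled Tg in cardiomyocytes for each gene, with the standard error as a bar. Right, level of Slc8a1 and Cacnb2 (CPM, from 0) in the 5 libraries. The female Tg points lie above the male ones for both genes, and the library labelled nTg female 1 lies near the male level for Slc8a1 only. The library labelled Tg female 1 had Ccna2 at 0.524 CPM.

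Of the pathway list, 69 genes were tested for sex in cardiomyocytes, 0 passed edgeR's test and 2 had an unadjusted p under 0.05. Their median log2 difference was -0.02, against 0.01 over all genes tested and 0.16 over the members. In the other types tested, edgeR called 0 members as well. Beside these, edgeR called 4 genes higher (0.0308%) and 19 lower (0.146%) in female endothelium, 8 (0.0535%) and 35 (0.234%) in fibroblasts, 3 (0.0292%) and 13 (0.127%) in pericytes, and 3 (0.06%) and 4 (0.0801%) in smooth muscle. At an unadjusted p under 0.05 there were 4 members in endothelium, 3 in fibroblasts, 1 in pericytes and 0 of the 9 tested in smooth muscle. The largest estimates were those of Casq2 in fibroblasts (1.36, SE 0.36, edgeR adjusted p = 0.239) and endothelium (1.36, SE 0.35, edgeR adjusted p = 0.249), at 3.57 to 15.8 CPM, which is the free-RNA level. Jph2 in fibroblasts had the opposite sign (-0.77, SE 0.22, edgeR adjusted p = 0.282), with 19.2 and 20.5 CPM in the female and 36.6 and 27.1 in the male Tg libraries.

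With 1 library labelled nTg, the genotype labels allow no test. A gene was called apart when that library lay outside the range of the 4 labelled Tg and at least 1.5-fold from their mean. This held for 0 of 10 members, against 0.537% of 7819 genes higher and 1.39% lower. Ryr2 had 9626 CPM in it against 9626 ± 958 (SD, n = 4), and the other log2 ratios of nTg over Tg ran from -0.23 (Slc8a1) to 0.15 (Pln). Casq2 (269 against 297 ± 26.5 CPM) and Camk2d (789.5 against 911 ± 131 CPM) were lowest in the nTg library, by less than 1.5-fold. Because Ccna2 goes against the labels of this library and of Tg female 1, these values describe labels and not transgene levels.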

How the data were processed

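The deposited matrices hold UMI counts per gene and barcode as whole numbers, deposited by the authors, from Cell Ranger 7.0.0 per the file headers, with mm10 named in the submitters' processing notes. The counting of introns and the calling of cells are not given in the sources used here. The authors' deposited feature tables pair gene identifiers with symbols, which served, with the barcode lists, as row and column names. Of the 8 matrices, 3 had column numbers (8062, 8992 and 8931) unlike their own barcode lists (7583, 8896 and 11241) and the same values as 3 matrices labelled Tg. They were not used.

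Filters were a minimum of 200 genes and a mitochondrial share under 5%. Doublets were called per library with scrublet in scanpy 1.11.5 (expected rate 6%) and removed, 7.63% to 11.4%. In the library labelled Tg female 2 the automatic threshold called under 0.5%, and the median threshold of the other libraries was used. Clusters (2000 variable genes, 30 components, Leiden resolution 1; members, Ccna2 and sex-linked genes left out) were named from marker lists when at least 3 markers were raised, giving 13 names, which mark resemblance only. A cluster of 2290 nuclei with fibroblast markers and one of 130 with cell-cycle genes stayed unnamed. Cardiomyocytes were clustered again at resolution 0.5, and 1 of the 7 states is not reported here.

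UMIs were summed per library and type. Sex was tested with edgeR 4.0.16 (TMM, filterByExpr, quasi-likelihood, Benjamini-Hochberg, threshold 0.05) in the 4 libraries labelled Tg. On simulated cardiomyocyte counts (15127 genes, 200 changed) edgeR called 38.0% of 2-fold and 81.0% of 4-fold changes, and 3.25% of its calls were false. Intervals are 95% exact ones. Alternatives were DESeq2 1.42.0, other filters, a replicate block, other covariates, doublets kept, 500 genes per nucleus, other resolutions and each library left out. The members and all lists were chosen with earlier results of these data known. Named genes were all members, listed pathway genes past a threshold, the 3 genes most like each member and the 3 leading genes of a state. For the wider pathway genes in other types, the threshold was that of the measure added later, and examples with values were picked after they were seen.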

Additional observations from a re-analysis of the deposited data

How the results depend on the processing

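No member was called between female and male cardiomyocytes under any alternative run. The number of all genes called there, 4, became 103 with DESeq2, 0 with at least 10 UMIs in every library, and 160 with no filter on low counts. In endothelium, 23 became 106 with DESeq2 and 387 with no filter, and in fibroblasts 43 became 173 and 532, or 65 with the unnamed cluster nearest to them added. With no filter, pericytes went from 16 to 89 and smooth muscle from 7 to 93. The cause was not tested. Leaving out 1 Tg library at a time, which leaves 1 arm with a single library assumed to vary like the rest, gave 69 to 212 calls in cardiomyocytes, 112 to 415 in endothelium, 40 to 1646 in fibroblasts, 29 to 359 in pericytes and 6 to 173 in smooth muscle. The log2 estimates of 5 members then changed sign: Ryr2 ran from -0.28 to 0.083, Atp2a2 from -0.040 to 0.20, Pln from -0.15 to 0.18, Casq2 from -0.038 to 0.23 and Jph2 from -0.26 to 0.13. Slc8a1 stayed between 0.56 and 0.57 (edgeR adjusted p from 0.126 to 1). With the replicate number as a replicate block, the counts were 112, 367, 185, 71 and 21 in cardiomyocytes, endothelium, fibroblasts, pericytes and smooth muscle, and Slc8a1 was at 0.57 (edgeR adjusted p = 0.856). Same-numbered cardiomyocyte libraries did not deviate together (r = 0.0137 over 15308 genes, 2 pairs). With 1 difference per sex, this cannot decide whether they share more than a number.

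By the ratio to cardiomyocytes, 0 members lay above the free-RNA range in all 7 types. With long reference transcripts only, the counts were 2 in endocardium, 2 in endothelium, 1 in fibroblasts, 3 in lymphatic endothelium, 4 in macrophages and 4 in pericytes. With the 10% of nuclei richest in cardiomyocyte transcripts left out, it was 1 in pericytes and 1 in smooth muscle, and without single libraries 0 to 1 in smooth muscle. By the added measure, keeping called doublets gave 1 in endocardium, 1 in lymphatic endothelium and 7 in macrophages, and leaving out the richest nuclei gave 2 in macrophages, 9 in smooth muscle, 5 in pericytes and 2 in endocardium. Without single libraries the counts were 3 to 5 in endocardium, 1 to 2 in macrophages, 6 to 7 in pericytes and 6 to 8 in smooth muscle. The 6 members above in smooth muscle stayed so under each alternative run, and 5 of the 6 in pericytes did, Atp2a2 being lost without the richest nuclei. Genes apart in the nTg library, 151, became 366 against female Tg libraries only and 130 to 232 without single libraries. The rule for the Fgf12 state needs 3 libraries, so leaving 1 out gives no call there, and the mean log2 ratio of Cacna1c was then -1.13 to -0.97. Depth limits Casq2 and Jph2 most, at a median of 1 to 2 UMIs per cardiomyocyte nucleus.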
